A study of Ovis aries with 4 samples.

Results

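FSHR, the gene of the follicle-stimulating hormone receptor, was followed through droplet libraries of frozen sheep striatum. It is 1 of the 26478 genes in the deposited gene lists (ENSOARG00020003107, with the same identifier and symbol in all 4 lists), and its molecules were counted in every library and in every nucleus. It was chosen by its counts in these same libraries, which were high in nuclei and 0 in whole cells, so that contrast is given below as a description, without a test. The striatum came from 4 sheep aged 5 years. Whole cells were released with papain and nuclei by dounce homogenisation in buffer with detergent. Each library held a pool of 2 animals, sheep 1 and 2 (replicate 1) or sheep 3 and 4 (replicate 2), so there were 2 libraries of whole cells and 2 of nuclei and no animal was measured alone. The labels give no treatment, genotype or sex, and the tissue was frozen in all groups.

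The receptor is a G protein-coupled receptor of the glycoprotein hormone family. Its long outer part of leucine-rich repeats binds the hormone, which is built from a subunit shared with other pituitary hormones (CGA) and a subunit of its own (FSHB), and the receptor then couples to a stimulatory G protein, adenylyl cyclase and cAMP. It is known for its place on granulosa cells of the ovary and Sertoli cells of the testis. The striatum consists largely of medium spiny neurons, inhibitory projection neurons of a dopamine D1 and a dopamine D2 kind that signal through the olfactory G protein alpha subunit (GNAL) and adenylyl cyclase 5 (ADCY5).

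The libraries differed in depth. The whole cells matrices summed to 1115058 and 19241918 unique molecular identifiers (UMIs, each a captured RNA molecule), those of nuclei to 70473292 and 51102420. A barcode had a median of 348 and 504 UMIs in the former and of 2612 and 2042 in the latter. Outside the mitochondrial genes, 125974 and 2512837 UMIs were left in whole cells and 69924470 and 50705635 in nuclei, and the median barcode had 40 and 72 genes against 1331 and 1158. The part of these differences in the whole cells count of FSHR was not tested. Nuclei replicates 1 and 2 shared 29 barcode sequences, and any whole cells library shared between 2 and 87 with a nuclei library. Levels below are counts scaled to the UMI total (CPM), with no scaling for gene length.

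FSHR was counted 24206 times in nuclei replicate 1 and 58777 times in the other nuclei library, and 0 times in each of the 2 whole cells libraries. Both whole cells libraries were therefore empty of it, and a count of 0 allows up to 2.69 CPM in the first and 0.156 CPM in the second (3 counts of the total). The nuclei libraries held 343.5 and 1150 CPM, which placed FSHR at rank 520 and rank 92 among all genes in UMIs. In replicate 1 FSHR was the only gene of the 520 at its level or above with no UMI in either whole cells library, and in replicate 2 it was the only one of 92. The others had at least 3 UMIs in whole cells replicate 2, with medians of 156 and 125. Summed over the libraries of a kind, and with 3 counts in place of 0 over the whole cells libraries together, FSHR was at least 4632-fold higher in nuclei, and at least 605-fold higher when mitochondrial UMIs were left out of the totals. Without whole cells replicate 2 the bound was 254-fold, or 28.9-fold when mitochondrial UMIs were also left out. Within a pool, it was 128-fold for sheep 1 and 2 and 7377-fold for sheep 3 and 4, or 14.5-fold and 971-fold without mitochondrial UMIs. The headers name Cell Ranger 6.0.1 for whole cells and 7.0.0 for nuclei, and the use of intronic reads is not given in the sources used here, so the counting and the kind of library cannot be told apart. Other genes with no UMI in whole cells included NR6A1 (16730 and 11851 UMIs in nuclei) and CASQ1, the skeletal calsequestrin (7707 and 13619).

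At the level of single nuclei, FSHR was seen in 1404 of 8700 usable nuclei (16.1%, exact 95% interval 15.4 to 16.9) in replicate 1 and in 1529 of 8388 (18.2%, 17.4 to 19.1) in replicate 2. Usable means 200 genes or more and no more than 5% of UMIs from mitochondrial genes. In most of these nuclei the gene was counted more than once, since 14.5% and 16% of usable nuclei had at least 2 of its UMIs. The highest count in a single nucleus was 87 in replicate 1 and 303 in replicate 2. All intervals here cover counting error only.

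To find which cells held the gene, 8004 and 7717 nuclei were clustered with FSHR left out, after removal of the 8% with the highest doublet scores in each library, and clusters were named from marker genes. In this clustering nearly all FSHR molecules lay in medium spiny neuron-like nuclei. That class held 15.4% of the clustered nuclei in replicate 1 and 16% in replicate 2, and 98.5% and 97.8% of the FSHR UMIs. The share in replicate 1 was between 96.9% and 98.8% in the 7 alternative clusterings, but in replicate 2 it depended on which clusters were given the name. There it was 11.6% with the automatic doublet threshold, 10.9% with more variable genes, 10.03% with up to 20% mitochondrial UMIs and 44.4% at resolution 1.0. In those 4 an unnamed cluster, with 6 or 7 spiny markers raised, held 85.3%, 87.0%, 87.0% and 52.4% of the FSHR UMIs of that library. Its level was 508 CPM in replicate 1 (1236 nuclei) and 1935 CPM in replicate 2 (1234 nuclei), or 1222 ± 1009 (SD, n = 2). A UMI of FSHR was found in 95.4% and 95.5% of its nuclei. The markers bore the name out, with summed spiny markers at 7512 to 7727 CPM in replicate 1 and 7233 to 7540 CPM in replicate 2 in its 2 large clusters, against 82.3 to 123 and 79.0 to 97.5 CPM for summed oligodendrocyte markers.

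In glia-like nuclei FSHR was close to absent. Oligodendrocyte-like nuclei had 3.23 and 9.79 CPM (3723 and 3779 nuclei), or 6.51 ± 4.63 (SD, n = 2). Microglia-like nuclei had 4.52 and 13 CPM, astrocyte-like nuclei 3.99 and 7.52 CPM, and oligodendrocyte precursor-like nuclei 3.20 and 6.13 CPM. No glia-like class overlapped the spiny class in either library. In each of these classes replicate 2 was the higher library, as it was in spiny nuclei. The share of nuclei with a UMI was 0.806% and 1.72% among oligodendrocyte-like nuclei, at median depths of 2190 and 1580 UMIs, against median depths of 31640 and 17720.5 UMIs in spiny nuclei. With every nucleus thinned to 500 UMIs (none was shallower) the shares were 27.0% and 60.9% in spiny nuclei and 0.295% and 0.476% in oligodendrocyte-like nuclei. Within the oligodendrocyte-like nuclei of replicate 2 the share was 0.618% in cluster 5 (2.42 CPM), 1.76% in cluster 3 (11.8 CPM) and 2.81% in cluster 4 (12.3 CPM). In replicate 1 the same clusters had 0.889% (3.27 CPM), 0.763% (3.61 CPM) and 0.742% (2.30 CPM), without that order. The part of free RNA in these glial counts was not tested.

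The class difference was tested with edgeR's quasi-likelihood test on summed counts of the 5 classes with at least 50 nuclei in each library, with the library as a block and Benjamini-Hochberg adjustment over 12592 genes. Spiny nuclei exceeded the mean of the 4 glia-like classes by 7.93 on the log2 scale (SE 0.12, edgeR adjusted p = 1.48e-12), a fold of 243 (205 to 288, 2 SE to either side). They were higher in 2 of 2 libraries, by 7.10 in replicate 1 alone and 7.79 in replicate 2 alone, as values with no test. The ratio of the spiny CPM to the plain mean of the glial CPM was 136 and 213. The interval does not reach the value of replicate 1. In that contrast 35.7% of all genes were called higher in spiny nuclei, so the call by itself is common, and FSHR stood at rank 10 of the 12592 by fold. Over all 5 classes the edgeR F statistic was 1047 (adjusted p = 1.42e-11), in a test that called 88.1% of genes. Against the mean of all other classes, each glia-like class was lower. Those means include the spiny class, so these contrasts largely repeat the one above. The log2 differences were -2.27 in precursor-like nuclei (19.5% of genes called lower), -2.18 in astrocyte-like nuclei (18.0%), -1.75 in microglia-like nuclei (32.9%) and -1.73 in oligodendrocyte-like nuclei (27.1%), with edgeR adjusted p of 2.13e-05, 3.31e-05, 1.80e-04 and 1.85e-05. Microglia lost this call at resolution 1.0 and without the library block, where edgeR adjusted p was 0.0789 and 0.0948. Each against the mean of the other 3, the glia-like classes did not pass the test, with differences between -0.31 and 0.27 on the log2 scale and edgeR adjusted p between 0.339 and 0.634. Those contrasts called 46.6%, 42.7%, 58.2% and 51.0% of all genes, in the same order, in either direction. With the library as a block, the p-values measure how far the class differences varied between these 2 libraries. They do not measure the difference between the libraries itself.

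The glial level was also set against the spiny level gene by gene. Of 1671 genes with at least 100 CPM in spiny nuclei of both libraries, FSHR had the lowest glial level as a percent of the spiny level in each library, 0.735% and 0.471%. That filter uses the spiny level, the denominator of the ratio, so the rank describes these genes only. The median gene was at 83.6% and 84.0%. PDE10A, the phosphodiesterase typical of spiny neurons, stood at 4.95% and 6.02%, and RGS9, a regulator of G protein signalling enriched in striatum, at 18.6% and 14%. DRD2, below the filter, stood at 2.21% and 3.35%. The ratio of FSHR to these genes thus differed between spiny and glia-like nuclei of the same library.

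**Figure D1:**
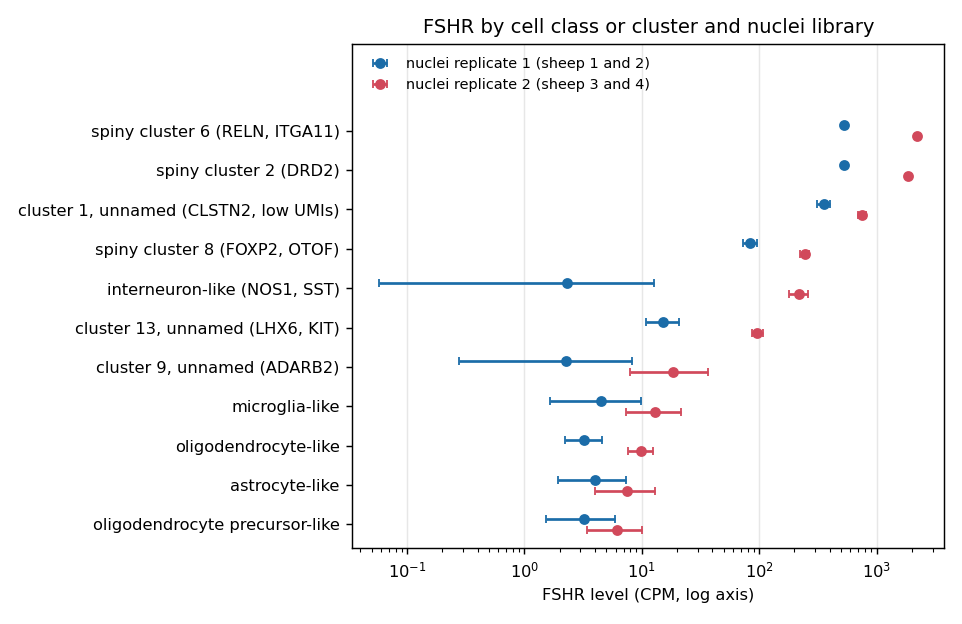
FSHR level (x axis, CPM, log scale) in named classes and in numbered clusters of nuclei, with 1 point per nuclei library and exact Poisson 95% intervals that cover counting error only (for the largest sums the interval lies within the point). The spiny clusters 2 and 6 lie at 532 CPM in replicate 1 and at 1855 and 2212 CPM in replicate 2, and every glia-like class lies at or below 13 CPM; clusters with fewer than 50 nuclei in a library are left out, except the interneuron-like cluster.

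The neurons were not alike in FSHR. Of the spiny clusters, cluster 2 was led by the dopamine receptor gene DRD2 (33.8 and 53.3 CPM) and held the enkephalin gene PENK (49.0 and 46.8 CPM). Cluster 6 held the tachykinin gene TAC1 (288 and 181 CPM) and the transcription factor gene EBF1 (167 and 200 CPM), with DRD2 at 1.0 and 2.9 CPM. FSHR was at 532 and 1855 CPM in cluster 2 and at 532 and 2212 CPM in cluster 6. The difference, cluster 6 over cluster 2, was 0.14 on the log2 scale (SE 0.25, edgeR adjusted p = 1) and did not pass the test, in a contrast that called 0.259% of genes higher and 0.32% lower. Both clusters had the gene in nearly all nuclei, 98.0% and 99.4% in cluster 2 and 98.4% and 99.2% in cluster 6.

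A smaller spiny cluster differed from these. Cluster 8 was led by genes such as NTNG1, FOXP2 and OTOF, and had the receptor tyrosine kinase gene ALK at 2806 and 2540 CPM against 213 and 230 CPM in cluster 2. FSHR was at 84.0 CPM in its 73 nuclei of replicate 1 and at 244 CPM in its 86 nuclei of replicate 2, below the large spiny clusters in both libraries. The difference from the mean of clusters 2 and 6 was -2.96 on the log2 scale (SE 0.27, edgeR adjusted p = 3.39e-08), where 9.48% of genes were called lower. FSHR was seen in 50.7% and 45.3% of these nuclei, at median depths of 26544 and 16235.5 UMIs. The median nucleus had 1 UMI in replicate 1 and 0 in replicate 2, where 359 of 428 UMIs lay in 16 nuclei. In 5 of 7 alternative clusterings this cluster did not keep the spiny name.

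Clusters of neuron-like nuclei outside the spiny class had less than clusters 2 and 6 in summed counts. Cluster 1, without a name because 1 spiny marker passed the naming rule, was led by CLSTN2 and was shallow (median 2029 and 1719.5 UMIs). It had 355 and 754 CPM of FSHR, lower than clusters 2 and 6 by a log2 difference of -1.34 (SE 0.25, edgeR adjusted p = 4.18e-04; 13.5% of genes called lower). The median nucleus had 0 FSHR UMIs in both libraries, and 6 of 149 nuclei held 119 of 242 UMIs in replicate 1 and 14 of 156 held 404 of 576 in replicate 2. With CPM averaged over nuclei, the direction turned in replicate 1, at 711 CPM in cluster 1 against 684 and 693 CPM in clusters 2 and 6, and it held in replicate 2, at 2202 against 2678 and 3041 CPM. Cluster 13, which carried interneuron markers such as LHX6, KIT and PTHLH but was left without a name, had 15.2 and 96.4 CPM (log2 difference -4.83, SE 0.30, edgeR adjusted p = 3.54e-11; 20.4% called lower). A few nuclei carried it. In replicate 1, 31 of its 38 UMIs lay in 1 nucleus, and in replicate 2, 326 of 362 lay in 6 nuclei. The interneuron-like cluster of NOS1, SST and NPY had 1 UMI in 21 nuclei of replicate 1 (2.29 CPM) and 123 UMIs in 30 nuclei of replicate 2 (217 CPM), of which 121 lay in 2 nuclei. Cluster 9, with ADARB2 among its leading genes, had 2.27 and 18.5 CPM, a log2 difference of -7.67 from clusters 2 and 6 (SE 0.43, edgeR adjusted p = 5.75e-12; 26.9% called lower).

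The level in spiny nuclei differed between the libraries. In some clusterings, given below, the higher level lay in a subset of the spiny nuclei of replicate 2. In others no such subset was set apart. Replicate 2 was also higher in cluster 8 (84.0 and 244 CPM) and in each glia-like class. It was not higher in the oligodendrocyte-like cluster 5 (3.27 and 2.42 CPM). Over all barcodes FSHR was 3.35-fold higher in CPM in nuclei replicate 2 than in replicate 1, and in spiny nuclei 3.81-fold. Of 2109 genes with at least 100 CPM in a nuclei library, 32 (1.52%) were at least 2-fold higher in replicate 2. A gene could enter through its higher library alone, so this share rests on that selection. With 1 library per pool this is a comparison of 2 libraries and has no test.

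At a clustering resolution of 1.0 in place of 0.5, again without FSHR, the spiny nuclei of replicate 2 fell into separate groups. In the pair of spiny clusters that held nuclei of both libraries, FSHR was at 530 CPM in 1152 nuclei of replicate 1 and at 497 CPM in 282 nuclei of replicate 2, a ratio of 0.938. Another pair of clusters held 855 nuclei of replicate 2 and almost none of replicate 1, and there FSHR was at 3295 CPM, 6.22-fold above replicate 1. The latter nuclei held 79.3% of all FSHR UMIs of that library. Per nucleus, the median was 16 UMIs in replicate 1 and 15 in replicate 2 within the shared clusters (5th to 95th percentile 1 to 47 and 1.05 to 51), and 51 UMIs in the clusters of replicate 2 alone (14.7 to 106). Every one of those 855 nuclei had the gene. Their clusters had 6 and 9 raised spiny markers, and the one with 6 stayed without the spiny name because its leading genes held an endothelial marker (CDH5) and no spiny one. They were also shallower, with a median of 15285 total UMIs against 32113.5 and 39288.5 in the shared clusters.

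The same split arose in 4 of 8 clusterings, with 852 to 865 nuclei set apart at 3276 to 3306 CPM and the rest of the spiny nuclei of replicate 2 at 479 to 523 CPM. In the other 4, the one reported first among them, no spiny cluster was particular to replicate 2, and those nuclei together were at 2051 CPM. FSHR took no part in 7 of these clusterings, but genes that varied with it did. Because the pool of sheep 3 and 4 was 1 library, an animal, a state of the nuclei and a step of that library cannot be told apart.

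**Figure D2:**
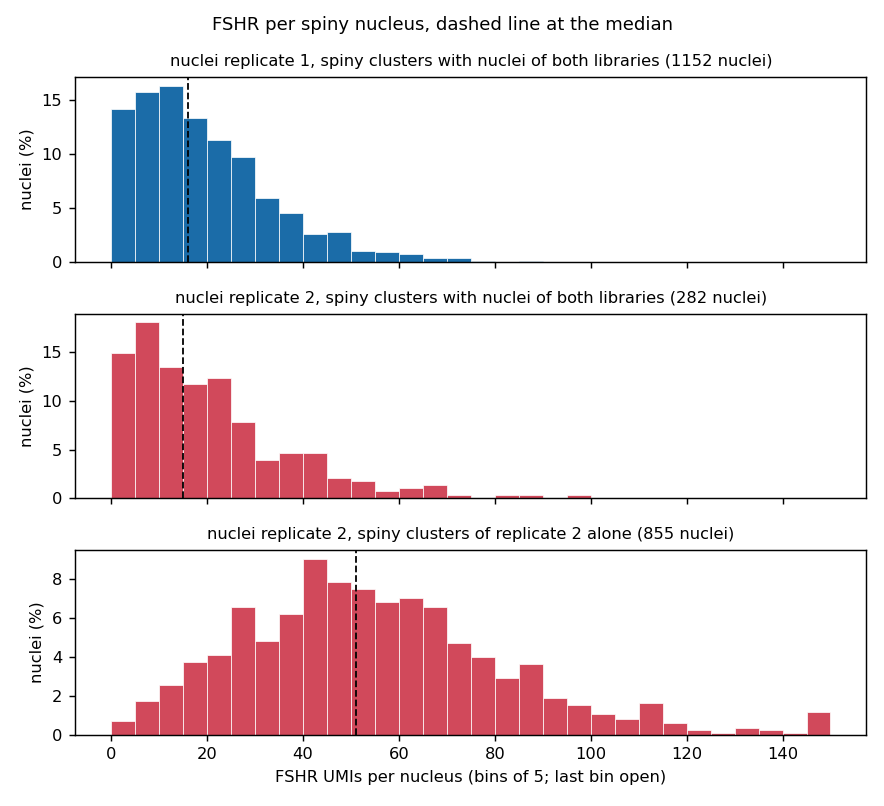
Percent of nuclei (y axis) by number of FSHR UMIs per nucleus (x axis, bins of 5, last bin open) in 3 groups of spiny nuclei from the clustering at resolution 1.0. The shared clusters have medians of 16 (replicate 1) and 15 (replicate 2) and overlap along their range, whereas the clusters of replicate 2 alone are shifted to a median of 51.

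The libraries also differed at matched depth. In nuclei of clusters 2 and 6 with 20000 to 40000 UMIs, FSHR was at 679 CPM in replicate 1 (532 nuclei, median 18 UMIs) and at 1763 CPM in replicate 2 (329 nuclei, median 48 UMIs). Between 10000 and 20000 UMIs the levels were 1232 and 3606 CPM, and between 40000 and 80000 UMIs they were 329 and 595 CPM. Replicate 2 was higher in all 3 ranges.

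The count per nucleus followed depth differently in the 2 libraries. Nuclei of clusters 2 and 6 were put in 5 groups of equal size by total UMIs. In replicate 1 the mean FSHR count was 18.1, 22.8, 18.2, 17.1 and 17.3 UMIs from the shallowest group to the deepest, while median total UMIs went from 15812 to 59338. PDE10A went from 44.7 to 201 UMIs per nucleus over the same groups. As a level, FSHR thus went from 1222 to 274 CPM, and PDE10A stayed between 3022 and 3253 CPM. In replicate 2 the mean FSHR count was 36.3, 49.2, 58.9, 53.5 and 30.3 UMIs, higher with depth over the first 3 groups and lower after them, and the level went from 4616 to 644 CPM, with PDE10A between 2774 and 3250 CPM.

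Across nuclei, Pearson's r of the FSHR count with total UMIs was -0.06 in replicate 1 (1163 nuclei) and -0.14 in replicate 2 (1148 nuclei). The median gene of at least 100 CPM had 0.70 and 0.73, and FSHR was the second lowest of 1737 genes and the third lowest of 1812. Within the groups of the finer clustering, r was -0.06 and 0.03 in the shared clusters of replicates 1 and 2 and 0.46 in the clusters of replicate 2 alone. The pooled value of replicate 2 thus joins a shallower group with high counts, in which FSHR was higher in deeper nuclei, and a deeper group with low counts. Nuclei of 1 library share their droplet run and depth, so these values are descriptions. The mitochondrial share moved the same way, from a median of 0.959% in the shallowest group to 0.511% in the deepest in replicate 1 and from 0.874% to 0.304% in replicate 2, and its part in the FSHR level was not tested.

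**Figure D3:**
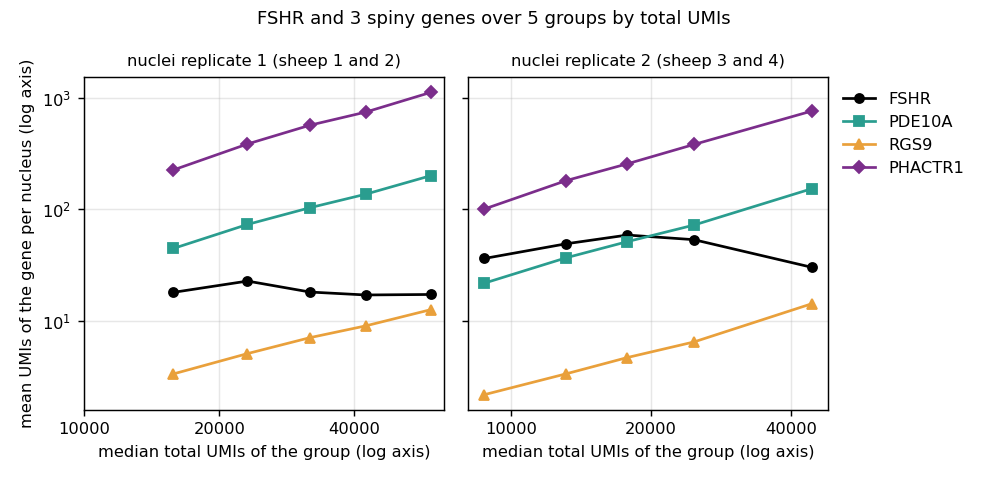
Mean UMIs per nucleus of FSHR, PDE10A, RGS9 and PHACTR1 (y axis, log scale) against the median total UMIs of 5 groups of spiny nuclei in clusters 2 and 6 (x axis, log scale), with a panel for each nuclei library. The 3 other spiny genes rise with depth, while FSHR stays between 17.1 and 22.8 UMIs in replicate 1 and between 30.3 and 58.9 in replicate 2.

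Other genes varied with FSHR from nucleus to nucleus. Over 1662 genes of at least 100 CPM in spiny nuclei of both libraries, on log counts per 10000 UMIs, the median r with FSHR was -0.06 in replicate 1 and -0.11 in replicate 2. The highest was CTNNA3, alpha-T-catenin of cell adhesion, at 0.74 and 0.82. KANSL1L followed with 0.67 and 0.75, and PREX2, an exchange factor for the GTPase Rac, with 0.60 and 0.75. Ferritin heavy chain (FTH1), the RNA helicase gene DDX5 and a calmodulin gene (CALM2, ENSOARG00020017821) had r between 0.56 and 0.67. In all, 7 genes had r above 0.5 in both libraries. With the log of total UMIs regressed out, a measure added after the data were seen, r for CTNNA3 was 0.66 and 0.71, for KANSL1L 0.61 and 0.62, and for PREX2 0.55 and 0.61. These 3 of the 7 stayed above 0.5 in both libraries. The others were lower, with 0.57 and 0.44 for CALM2, 0.54 and 0.41 for FTH1, 0.55 and 0.34 for DDX5 and 0.44 and 0.37 for PPP2R3A.

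At the other end were genes whose counts followed depth closely, among them RBFOX1, a neuronal splicing regulator (-0.31 and -0.34), and FGF14, which modulates sodium channels (-0.33 and -0.30). With the log of total UMIs regressed out, r was -0.23 and -0.22 for RBFOX1 and -0.25 and -0.05 for FGF14. The correlated genes were not restricted to spiny nuclei as FSHR was. CTNNA3 was at 637 and 1711 CPM in spiny nuclei and at 6803 and 7407 CPM in oligodendrocyte-like nuclei, and it had 17 and 80 UMIs in whole cells.

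**Figure D4:**
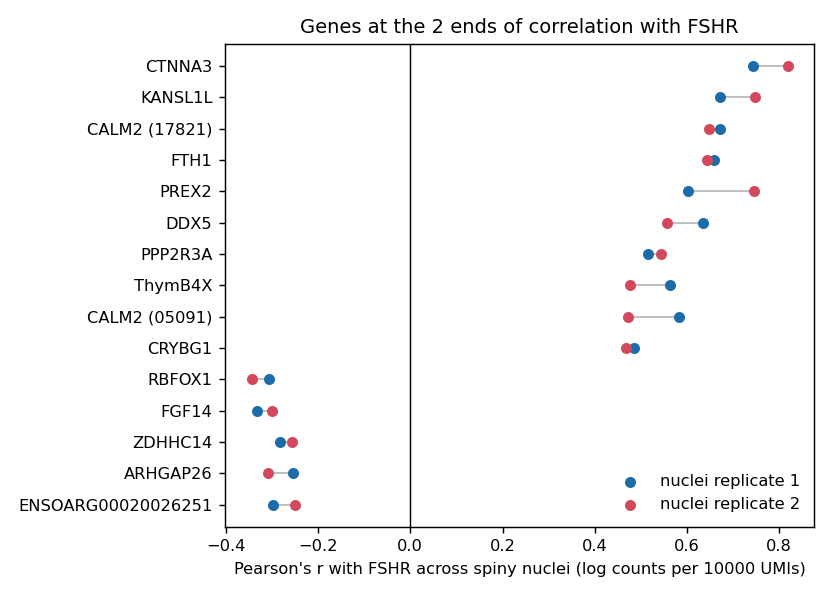
Pearson's r with FSHR across nuclei of spiny clusters 2 and 6 (x axis) for the 10 genes with the highest smaller r of the 2 libraries and the 5 genes at the other end (y axis), with 1 point per nuclei library. CTNNA3 is highest at 0.74 and 0.82, and RBFOX1 is at -0.31 and -0.34; names that occur more than once carry the last digits of their identifier.

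Several of these genes were higher in the clusters of replicate 2 alone, and others were not. CTNNA3 was at 640 and 534 CPM in the shared clusters of replicates 1 and 2 and at 2697 CPM in the clusters of replicate 2 alone. KANSL1L was at 135, 124 and 649 CPM in that order, and PREX2 at 290, 284 and 943 CPM. MUC15, a membrane mucin that led both clusters of replicate 2, was at 76.3, 50.0 and 344 CPM, and CASQ1 at 67.4, 51.9 and 329 CPM. FTH1 was at 220, 73.7 and 396 CPM, and DDX5, at 473, 147 and 390 CPM, was highest in replicate 1. Of the genes that mark spiny neurons, PDE10A was at 3186, 3297 and 2791 CPM, GNAL at 499, 552 and 497 CPM, RGS9 at 212, 304 and 259 CPM and DRD2 at 18.0, 28.0 and 23.7 CPM. FSHR varied with CTNNA3 inside each group as well, with r of 0.75, 0.73 and 0.36. These genes took part in the clustering, so their levels between clusters are descriptions.

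**Figure D5:**
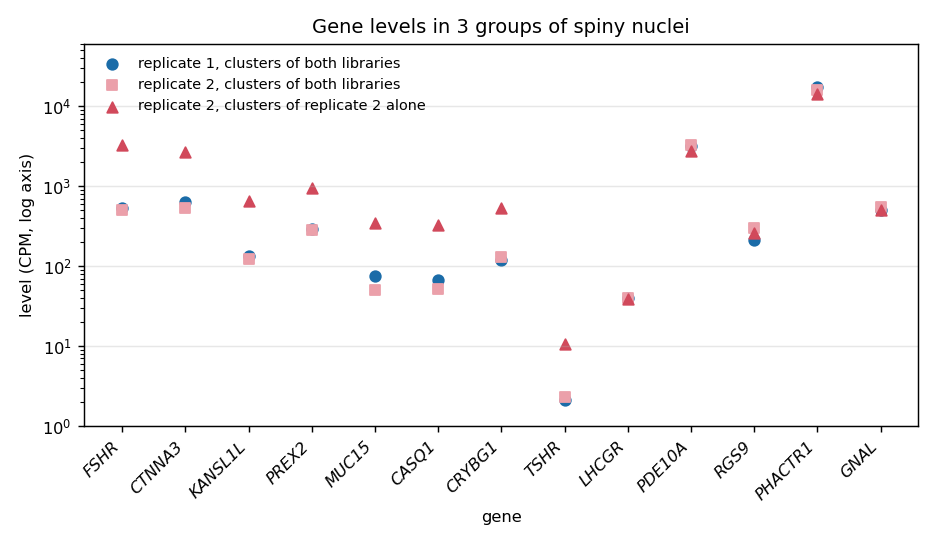
Level (y axis, CPM, log scale) of 13 genes (x axis) in spiny nuclei of clusters with both libraries (circles, replicate 1; squares, replicate 2) and of clusters of replicate 2 alone (triangles), at resolution 1.0. FSHR lies at 530, 497 and 3295 CPM, and CTNNA3, KANSL1L, PREX2, MUC15, CASQ1, CRYBG1 and TSHR are likewise highest in the clusters of replicate 2 alone, while LHCGR, PDE10A, PHACTR1 and GNAL lie close together and RGS9 lies between 212 and 304 CPM.

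The genes with the class pattern most like that of FSHR were found over the 7 named classes, by the smaller of the 2 within-library correlations of log2(CPM + 1) among 7869 genes. For FSHR the lymphocyte-like value rests on 0 and 1 UMI and the interneuron-like value on few nuclei, as given above, so r is partly set by few molecules. GABRA5, an alpha subunit of the GABA-A receptor, was first with r of 0.98 and 0.93, at 182 and 205 CPM in spiny nuclei. RIC8B, a chaperone of G protein alpha subunits that acts on GNAL, had 0.91 and 0.88, and NRG1, the growth factor neuregulin, 0.87 and 0.89. MOB1B (0.91 and 0.86) and RELN, which encodes the secreted protein reelin (0.93 and 0.86), completed the 5. None of these had the library difference of FSHR. RIC8B was at 576 and 569 CPM in spiny nuclei, and NRG1 at 7670 and 7460 CPM.

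The genes with a ratio of replicate 2 over replicate 1 most like that of FSHR (3.35) were PKD2L2 at 3.09, SLC24A5 at 3.06, UPP2 at 2.85, FILIP1L at 2.66 and CRYBG1 at 2.56. Of these CRYBG1 (119 and 342 CPM against 15.2 and 38.4 CPM) and UPP2 (50.8 and 176 CPM against 44.2 and 107 CPM) were higher in spiny than in glia-like nuclei in both libraries. PKD2L2 was at 26.5 and 89.2 CPM in spiny nuclei and at 40.3 and 114 CPM in glia-like nuclei. SLC24A5 and FILIP1L too were lower in spiny than in glia-like nuclei in both libraries. In whole cells these 5 genes had 0 to 2 UMIs in replicate 1 and 0 to 42 in replicate 2.

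The relatives of FSHR came next. LHCGR, the receptor of luteinising hormone, had 0, 12, 2106 and 1334 UMIs in whole cells 1 and 2 and nuclei 1 and 2. In spiny nuclei it was at 44.2 and 42.7 CPM and in glia-like nuclei at 2.86 and 2.60 CPM, a log2 difference of 4.94 (SE 0.16, edgeR adjusted p = 1.08e-10). Unlike FSHR, LHCGR had nearly the same level in the 3 groups of spiny nuclei (40.4, 39.9 and 38.4 CPM), and its r with FSHR across nuclei was -0.04, -0.04 and -0.06. TSHR, the thyrotropin receptor, was sparse at 220 and 364 UMIs in nuclei and did not pass the class test (0.22, SE 0.35, edgeR adjusted p = 0.616). It was at 2.14 and 2.29 CPM in the shared clusters and at 10.5 CPM in the clusters of replicate 2 alone. With the R-spondin receptors LGR4, LGR5 and LGR6 and the relaxin receptors RXFP1 and RXFP2, 7 relatives were listed and 5 had enough counts to be tested. Of these, 4 were higher in spiny nuclei, 0 lower and 1 not called, with a median log2 difference of 1.28, against a median of -4.95e-04 over all 12592 genes and 35.7% called higher.

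The contrast weighs the logs of the 4 glia-like classes equally, whereas the glial CPM given here is their plain mean, and the 2 can point apart. LGR4 was called higher in spiny nuclei (1.28, SE 0.14, edgeR adjusted p = 7.66e-06) with 129 and 102 CPM there and a glial mean of 192 and 175 CPM. LGR5 (0.63, SE 0.20, edgeR adjusted p = 0.0155) was likewise below its glial mean, at 8.39 and 8.86 CPM against 31.5 and 31.9 CPM.

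Of the hormones and their control, the subunit gene FSHB had 4 and 11 UMIs in the nuclei libraries and 0 in whole cells, and the shared subunit gene CGA had 7 and 7 UMIs. LHB had 0 and 5 and TSHB 6 and 29 UMIs in nuclei. The glycoprotein hormone subunits GPHA2 and GPHB5 had 0 and 1, and 3 and 4. The releasing hormone gene GNRH1 had 10 and 7 UMIs, and its receptor gene GNRHR had 182 and 368. GNRHR was lower in spiny nuclei (-0.94, SE 0.27, edgeR adjusted p = 9.11e-03). The inhibin and activin subunit gene INHBA was higher in them, at 14 and 27.6 CPM against 1.54 and 1.80 CPM (4.88, SE 0.24, edgeR adjusted p = 4.04e-09), and INHBB, another subunit, had 34 and 27 UMIs, none of them in spiny nuclei, and was not called. INHA had 187 and 94 UMIs, KISS1R 20 and 15, and the activin-binding FST 2 and 6. Of the 13 listed genes that the files name, 3 were tested, 1 higher (35.7% of all genes), 1 lower (31.5% of all genes) and 1 not called.

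For the signal path below the receptor, 25 of 26 listed genes were named in the files and tested. Of these, 9 were higher in spiny nuclei (35.7% of all genes), 10 were lower (31.5% of all genes) and 6 were not called, with a median log2 difference of -0.02. GNAL, which carries the stimulatory signal of dopamine and adenosine receptors in striatum, was at 490 and 508 CPM in spiny nuclei and at 31.9 and 30.3 CPM in glia-like nuclei (4.46, SE 0.08, edgeR adjusted p = 2.42e-12). ADCY5 was at 772 and 914 CPM against 50.3 and 44.8 CPM (4.89, SE 0.13, edgeR adjusted p = 2.47e-11). The phosphodiesterase gene PDE4D, which breaks down cAMP, was called higher by 1.46 (SE 0.10, edgeR adjusted p = 9.07e-08), with 1052 and 1328 CPM in spiny nuclei below a glial mean of 1505 and 1669 CPM. The beta-arrestin genes, whose products silence such receptors, were lower in spiny nuclei, ARRB1 by -1.39 (SE 0.15, edgeR adjusted p = 5.88e-06) and ARRB2 by -1.94 (SE 0.25, edgeR adjusted p = 2.59e-05).

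Genes of gonadal cells were scarce. Of 11 named in the files, FOXL2, a transcription factor of granulosa cells, had 0 UMIs in all 4 libraries, NR5A1 had 3 and 12 UMIs in nuclei and AMH, the Sertoli and granulosa cell hormone, 33 and 13. The steroid synthesis genes STAR, CYP11A1 and HSD17B1 had 21 and 37, 3 and 2, and 56 and 3 UMIs. Of 3 genes tested, ESR2, the oestrogen receptor beta gene, was higher in spiny nuclei at 26.1 and 22.7 CPM against 1.93 and 1.45 CPM (4.29, SE 0.20, edgeR adjusted p = 2.10e-09). SOX9, also an astrocyte gene, was lower (-3.16, SE 0.33, edgeR adjusted p = 3.54e-06), and AMHR2 was not called. Of all genes, 35.7% were called higher and 31.5% lower.

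On chromosome 3 of the RefSeq assembly ARS-UI_Ramb_v3.0, which need not be the build the authors used, FSHR overlaps 1 annotated small nuclear RNA gene (LOC114114140), and whether any FSHR UMIs came from that stretch was not tested. FSHR is followed on one side by LHCGR, GTF2A1L, STON1, PPP1R21 and FOXN2. GTF2A1L, beyond LHCGR, had 115 and 117 UMIs in nuclei and none in whole cells, too few for the class test. STON1 (-2.12), PPP1R21 (-0.63) and FOXN2 (-1.80) were lower in spiny nuclei, with edgeR adjusted p of 1.63e-03, 1.13e-03 and 5.80e-08 (31.5% of all genes called lower), whereas LHCGR was higher, as given above (35.7% called higher). PPP1R21 was at 25.6 and 33.0 CPM in spiny nuclei, FOXN2 at 10.0 and 11.2 CPM and LHCGR at 44.2 and 42.7 CPM. None of these 3 genes had a spiny level that differed between the libraries as that of FSHR did.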

How the data were processed

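The authors deposited raw UMI counts per gene and barcode, 1 matrix per library, from Cell Ranger 6.0.1 (whole cells) and 7.0.0 (nuclei), per the file headers. The submitters' processing notes also list Cell Ranger 2.1.1 and STAR 2.7.2a. Genome build, barcode filter and use of intronic reads are not given in the sources used here. For the second whole cells pool the protocol text has animals 2 and 3 instead, and the titles were followed.

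Usable nuclei (at least 200 genes, at most 5% mitochondrial UMIs over 35 genes) were scored for doublets with Scrublet, the highest 8% per library were removed (its automatic threshold marked 4.41% and 3.34%), and the rest were clustered without FSHR in scanpy 1.11.5 (2000 variable genes, 30 components, 15 neighbours, Leiden resolution 0.5). A cluster was named where at least 3 markers of a class were raised 2-fold in at least 10% of its nuclei, leading the next class by 2, and was left unnamed where its 10 leading genes held more markers of another class than of its own, or none of its own in a cluster far shallower than its libraries. This rule was set after the data were seen. Rebuilt names may differ from the study's. Counts summed per class and library were tested with edgeR 4.0.16 in R 4.3.3 (TMM, filterByExpr), with the library as a block, since classes of 1 library come from the same animals. On simulated counts for the 12592 genes, 100 of 100 genes changed 4-fold and 100 of 100 changed 16-fold were recovered, and 15 of 10864 unchanged genes were called. The simulated classes otherwise shared a profile and a common dispersion, without a library effect. These counts therefore do not give error rates for the real data.

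Alternatives were other filters, clusterings and normalizations, DESeq2 1.42.0, no block and each library left out. Genes named beside FSHR were the 5 most like it over classes, the 5 nearest in library ratio and those of fixed lists; genes that varied with it across nuclei were picked after the data were seen. FSHR, the gene lists and the tests were chosen with earlier results of these data known. Contrasts between numbered clusters or among glia-like classes, groups by depth and the finer spiny groups were added after the data were seen. Some genes of these lists are not reported here.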

Additional observations from a re-analysis of the deposited data

How the results depend on the processing

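The contrast of neuron-like against glia-like classes kept its direction and its call under all alternatives that gave a test. Its log2 difference was 8.05 without the replicate block (edgeR adjusted p = 9.74e-08), 7.51 with library size alone and 7.90 with DESeq2. It was 5.23 with doublets kept and 5.09 at resolution 1.0, where interneuron-like nuclei were numerous enough to enter the neuron mean. At resolution 1.0 a cluster of 497 nuclei of replicate 2 at 3381 CPM also left the spiny class. Spiny nuclei alone against the mean of all other classes differed by 6.82 and 6.65 there. Without replicate 1 or replicate 2 of nuclei it was 7.79 and 7.10, as values with no test. Microglia against the mean of the others (-1.75) lost its call without the replicate block (-1.74, edgeR adjusted p = 0.0948) and at resolution 1.0 (-1.62, edgeR adjusted p = 0.0789), and the cause was not tested.

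The bound on the nuclei excess was 605-fold with mitochondrial UMIs left out and ranged from 254-fold to 7805-fold when 1 library was left out (28.9-fold to 1020-fold with both changes). The mean share of nuclei with FSHR, 17.2%, became 7.91% when thinned to 500 UMIs and 15.3% for at least 2 UMIs, both by construction. Precursor-like nuclei moved from 4.66 to 7.01 CPM when nuclei were averaged. Astrocyte-like nuclei moved from 5.75 to 9.80 CPM at up to 20% mitochondrial UMIs and to 9.71 CPM with FSHR kept in the clustering, and microglia-like nuclei from 8.76 to 18.7 CPM with doublets kept. The spiny mean of 1222 CPM was 535, 478 and 507 CPM with the automatic doublet threshold, more variable genes and up to 20% mitochondrial UMIs, where the clusters of replicate 2 alone were set apart and left without the spiny name, and 514 CPM in shared clusters at resolution 1.0. Single libraries gave 508 and 1935 CPM.

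The limits are 2 nuclei libraries, each a pool of 2 animals, and classes of few nuclei: the interneuron-like class (21 and 30 nuclei) was too small to test (against the mean of the other classes it was 1.55 with doublets kept, edgeR adjusted p = 8.00e-04, and 0.64 at resolution 1.0, edgeR adjusted p = 0.407), and glial levels rest on 6 to 71 UMIs per class and library.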

Other observations

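Oligodendrocyte-like nuclei showed a split by library as well. At resolution 1.0, a cluster of 57 nuclei of replicate 1 and 1501 of replicate 2 had FSHR at 22.9 and 16.7 CPM, from 2 and 37 UMIs, and a cluster of 163 nuclei found in replicate 2 had 13.9 CPM, from 5 UMIs. The other oligodendrocyte-like clusters had 2.28 to 8.07 CPM in replicate 1 and 3.10 to 11.0 CPM in replicate 2. Cluster 12, 33 nuclei of replicate 2 led by IL1B and CCL2, had 22 FSHR UMIs, all in 1 nucleus. These clusters were chosen after their values were seen, and the differences were not tested.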
